A study of Rattus norvegicus with 6 samples.

Results

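The genes described here encode the folding machinery of the endoplasmic reticulum (ER), the sensors and effectors of the unfolded protein response, and parts of ER-associated degradation and of the translocon, and their transcripts were measured in kidney cortex from male rats of the Sprague-Dawley stock Crl:CD(SD), bought at 5 weeks of age. The list names 31 genes, taken by gene name and function. This choice of genes uses no measured value, but the list was drawn up with earlier results of these data known. The probe that stands for each gene was chosen by measured signal, as the brightest one kept. Probes were assigned through their RefSeq transcript, and 28 of the 31 genes had such a probe, all 28 of which were tested among 11748 genes. Manf, Edem1 and Derl2 were not analysed here. Of 6 animals, 3 received corn oil, the vehicle, and 3 received 750 mg/kg/day of 2-amino-4-nitrophenol, an aromatic amine and hair dye ingredient, in both cases for 4 weeks. Total RNA of each rat was labelled with Cy3 and read on 1 single-colour Agilent array, so that each group had 3 arrays. The comparison asks whether the ER folding and stress genes differed between treated and corn oil rats. As the RNA came from whole cortex, fewer cells of a type and less RNA per cell cannot be told apart.

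The ER lumen holds a folding system of chaperones, disulfide isomerases and lectins. When unfolded proteins build up there, the chaperone BiP, the product of Hspa5, leaves the sensors IRE1 (Ern1), PERK (Eif2ak3) and ATF6 (Atf6). IRE1 splices the mRNA of the transcription factor Xbp1, ATF6 is cut in the Golgi to release a transcription factor, and PERK phosphorylates the translation factor eIF2alpha, which lowers protein synthesis and favours translation of Atf4. Tubule cells of the renal cortex make large amounts of membrane transporters and endocytic receptors that are folded by this system. A probe on this array reads the amount of a transcript. It does not report splicing of Xbp1, cleavage of ATF6 or phosphorylation of PERK.

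No member passed the threshold, an adjusted p under 0.05 in limma with Benjamini-Hochberg adjustment over all genes tested (0 of 28, against 3 of 11748 genes, 0.0255%). With the brightest probe per gene, the lowest adjusted p of a member was 0.153, for Dnajb9. Values below are log2 signals relative to the 75th percentile of each array, and a change is the treated mean minus the corn oil mean, with the standard error (SE) of limma and n = 3 per group. The changes of the 28 members ran from -0.37 for Pdia4 to 0.53 for Sdf2l1, with a median of 0.08, against a median of 0.04 over all genes tested. The 95% confidence interval of the change lay within a 2-fold rise or fall for 27 of the 28 members, and for 88.2% of all genes tested. Sdf2l1 was the exception, with an interval of -0.14 to 1.21. At an unadjusted p under 0.05 there were 3 members with a higher value in treated rats (Dnajb9, Herpud1 and Sec61b; background 14.3% of all genes) and 1 with a lower value (Pdia4; background 7.29%). The 3 treated arrays lay above all 3 corn oil arrays for 7 members (25%, against 20.1% of all genes) and below them for 2 (7.14%, against 10.1%). These shares were near those of all genes, and so say nothing particular about the members. After quantile normalization 1 member was higher (Dnajb9, background 8.15%) and 3 were lower (Canx, Pdia3 and Pdia4, background 9.64%) at an unadjusted p under 0.05, and the groups did not overlap for 2 higher members (Dnajb9 and Sec61b, background 12.3%) and for the same 3 lower members (background 13.8%). Leaving out 1 array at a time moved the number of higher members at an unadjusted p under 0.05 from 3 to between 0 (without treated replicate 3) and 7 (without treated replicate 1), with 1 without corn oil replicate 1 and 2 without corn oil replicate 3 or treated replicate 2. The share of all genes moved too. It was 8.61% without treated replicate 3, 20% without treated replicate 1, 9.58% without corn oil replicate 1, 8.5% without corn oil replicate 3 and 11.9% without treated replicate 2.

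The arrays differed in brightness between the groups. Corn oil arrays had a 75th percentile of 743 to 852 in processed signal, against 564 to 685 for treated arrays, and 68.1% to 70.9% of probes were well above background in corn oil against 61.6% to 66.3% after treatment. Its part in the changes was not tested. The changes depended on the scaling of the arrays. Quantile normalization gave a median change of -0.02 over the members, and scaling on the 7 spike-in control probes gave -0.23, where all genes had a median of -0.28. Spike-in scaling lowers every change by the same amount (a shift of -0.32). The 19 members that took the opposite sign under it are thus those with a change above 0 but smaller than the size of that shift. Quantile normalization, which is no constant shift, turned the sign of 9 members, and median scaling of 0. Sdf2l1, Herpud1 and Sec61b stayed above 0 in all 17 alternative settings, and Hsp90b1, Canx, Pdia3, Pdia4 and Sec61a1 stayed below 0. Not all settings could turn a sign. The replicate block, the trend and robust settings, the other filters and the authors' value table left the changes of these members as they were or nearly so. Spike-in scaling only lowers a change, so a member below 0 had to stay there. Corn oil replicate 2 was alone on slide 2 and the other 5 arrays shared slide 1, so that the slide as a block is the same as leaving that array out. The proximal tubule was well represented: all 15 of its marker genes, among them the transporters Slc34a1 and Slc22a6, were well above background on all 6 arrays.

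**Figure D1:**
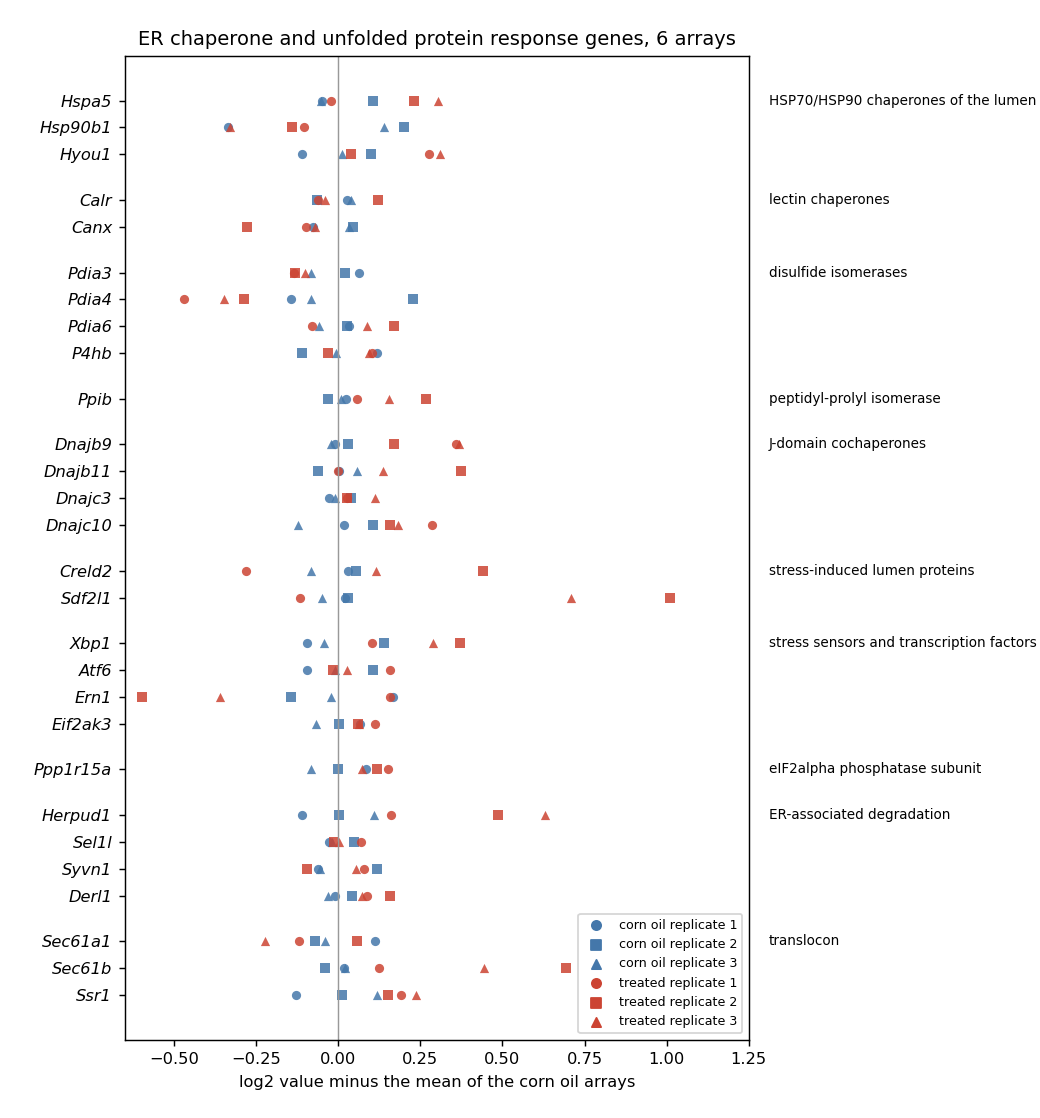
Each point is the log2 value of a member (rows, grouped by role) on 1 array, minus the mean of the 3 corn oil arrays. Blue points are corn oil and red points treated arrays, with a symbol for each replicate. Sdf2l1 shows the widest spread among treated arrays, from -0.12 to 1.01.

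The promoters of several members carry the sequences through which ATF6 and XBP1 are known to act, and they are shown here as a feature that part of the members share. The ER stress response element (ERSE), CCAAT and CCACG with 9 bases of any kind between them, and the shorter ERSE-II, ATTGG and CCACG with 1 base between them, were searched on both strands in the RefSeq promoter windows of the GRCr8 assembly, from 250 bases before to 50 bases after the start. Of the 31 genes, 24 had a window. ERSE was found for 7 of these 24 (29.2%), against 22 of all 33469 windows (0.0657%), and ERSE-II for 3 (12.5%), against 17 windows (0.0508%). The unfolded protein response element TGACGTGG, which can overlap the other motifs, was found for Dnajc10 and Hyou1 (8.33%, against 0.595% of all windows). A match is a description of the letters only. In the lines below, which read 5′ to 3′ along the strand of the gene, capitals mark the fixed letters of the motif. Where the motif lies on the other strand, its complement is in capitals. The first line gives the 250 bases before the start of Hspa5, and the others give a site with up to 12 bases on each side.
Hspa5, chr3:38452766-38453015, + strand: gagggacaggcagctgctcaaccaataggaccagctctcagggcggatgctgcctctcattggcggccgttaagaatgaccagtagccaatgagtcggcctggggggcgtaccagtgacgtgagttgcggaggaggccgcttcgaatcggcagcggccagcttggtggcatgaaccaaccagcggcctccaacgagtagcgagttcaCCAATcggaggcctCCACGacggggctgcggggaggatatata
Hsp90b1, chr7:23012439-23012481, - strand: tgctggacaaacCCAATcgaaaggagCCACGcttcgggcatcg
Hsp90b1, chr7:23012335-23012377, - strand: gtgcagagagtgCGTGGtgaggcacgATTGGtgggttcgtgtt
Creld2, chr7:121789227-121789269, + strand: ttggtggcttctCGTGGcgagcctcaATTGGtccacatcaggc
Canx, chr10:35158057-35158099, - strand: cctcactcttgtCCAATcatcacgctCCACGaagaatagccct
Xbp1, chr14:84604546-84604588, + strand: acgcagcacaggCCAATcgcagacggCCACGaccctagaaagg
Dnajc3, chr15:102432522-102432564, + strand: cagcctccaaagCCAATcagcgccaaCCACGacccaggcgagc
Calr, chr19:40213123-40213165, + strand: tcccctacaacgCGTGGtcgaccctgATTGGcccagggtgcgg
Hyou1, chr8:53602682-53602716, + strand: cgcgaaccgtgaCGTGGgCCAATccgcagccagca
Hyou1, chr8:53602782-53602816, + strand: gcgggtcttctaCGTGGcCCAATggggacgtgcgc
Dnajb11, chr11:91672800-91672822, - strand: tcccaggcggcgATTGGcCCACG
Herpud1, chr19:10614809-10614843, - strand: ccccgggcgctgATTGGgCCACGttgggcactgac
Hsp90b1 holds ERSE and Hyou1 holds ERSE-II in 2 copies each. The 10 members with either motif had changes from -0.19 (Hsp90b1) to 0.43 (Herpud1), with a median of 0.13 (0.01 after quantile normalization). Herpud1 was the only one of them whose arrays did not overlap between the groups (1 higher and 0 lower, background 20.1% and 10.1% of all genes). The 12 tested members that had a window without either motif had a median of 0.14 (0.08 after quantile normalization). The groups did not overlap for 5 higher and 1 lower of these 12 (same background). Among all 27 tested genes with either motif, members included, the median was 0.06. The treated arrays lay above the corn oil arrays for 5 of these 27 genes (background 20.1%) and below them for 5 (background 10.1%).

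The HSP70 and HSP90 chaperones of the lumen showed no change that passed. Hspa5 encodes BiP, the master chaperone of the ER and the usual readout of the unfolded protein response. Its log2 values were 5.13, 5.29 and 5.13 on corn oil replicates 1, 2 and 3, and 5.16, 5.42 and 5.49 on the treated replicates. Treated replicates 2 and 3 lay above all corn oil arrays and treated replicate 1 lay among them. The change was 0.17 ± 0.11 (limma, adjusted p = 0.410), with a 95% interval of -0.10 to 0.44, and it was -0.06 after quantile normalization and -0.15 with spike-in scaling. Without treated replicate 1 it was 0.27, with no overlap (unadjusted p = 0.0321, adjusted p = 0.128), and without treated replicate 3 it was 0.10. Hsp90b1 encodes GRP94, the HSP90 of the ER. Its values were 2.99, 3.53 and 3.46 in corn oil and 3.22, 3.18 and 3.00 in treated rats, and corn oil replicate 1 was the lowest of all 6 arrays, so that the groups overlapped. The change was -0.19 ± 0.16 (adjusted p = 0.515), and a dimmer probe of the gene gave 0.05. Without corn oil replicate 1 the change was -0.36, with all treated arrays below corn oil (unadjusted p = 0.0232, adjusted p = 0.296). It was -0.09 without corn oil replicate 2 and -0.12 without corn oil replicate 3 or treated replicate 3. Hyou1, a large HSP70-related chaperone and exchange factor of BiP, was at 2.68, 2.89 and 2.80 in corn oil and at 3.07, 2.83 and 3.10 in treated rats. Treated replicates 1 and 3 lay above all corn oil arrays and treated replicate 2 among them, and the change was 0.21 ± 0.11 from this probe (adjusted p = 0.311) and -0.27 from a dimmer one.

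Among the lectin chaperones, which hold glycoproteins during folding, calreticulin (Calr) had a change of 0.01 ± 0.09, with a 95% interval of -0.20 to 0.22. Calnexin (Canx), its membrane-bound relative, was at 2.21, 2.33 and 2.32 in corn oil and at 2.19, 2.01 and 2.22 in treated rats. Treated replicates 2 and 1 were the lowest arrays, and treated replicate 3 was just above corn oil replicate 1. The change of -0.15 ± 0.09 did not pass (limma, adjusted p = 0.374), and it was -0.08 without treated replicate 2. A dimmer probe of Canx gave -0.26, with all treated arrays below all corn oil arrays. After quantile normalization the treated arrays of Canx lay below all corn oil arrays, with a change of -0.23.

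The disulfide isomerases, which make and rearrange disulfide bonds, held the lowest change of the list. Pdia4, known as ERp72, was at -0.35, 0.02 and -0.29 in corn oil and at -0.68, -0.50 and -0.56 in treated rats. All 3 treated arrays lay below all 3 corn oil arrays, and corn oil replicate 2 was the highest. The change was -0.37 ± 0.12 (0.774-fold; limma, unadjusted p = 0.0227, adjusted p = 0.177), -0.35 after quantile normalization and -0.26 with the slide as a block. Pdia3 (ERp57), the partner of calnexin and calreticulin, was at 2.92, 2.88 and 2.78 in corn oil and at 2.73, 2.73 and 2.76 in treated rats. These groups did not overlap either, but the gap between treated replicate 3 and corn oil replicate 3 was narrow, and the change was -0.12 ± 0.08 (adjusted p = 0.388). Pdia6, a further isomerase, had a change of 0.06 ± 0.09, and P4hb, the classical disulfide isomerase and a subunit of prolyl hydroxylase, of 0.05 ± 0.09. Ppib, cyclophilin B, which turns proline bonds in the lumen, was at 4.26, 4.21 and 4.25 in corn oil and at 4.30, 4.50 and 4.39 in treated rats. Its groups did not overlap and its change was 0.16 ± 0.08 (adjusted p = 0.318), but the sign turned after quantile normalization (-0.03) and with spike-in scaling (-0.16).

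Of the J-domain cochaperones, which hand clients to BiP, Dnajb9 had the lowest p of all members with the brightest probe per gene. Dnajb9 encodes ERdj4, an XBP1 target that also represses IRE1. Its values were 0.83, 0.87 and 0.82 in corn oil and 1.20, 1.01 and 1.21 in treated rats. All 3 treated arrays lay above a narrow range of corn oil arrays, with treated replicate 2 the nearest. The change was 0.30 ± 0.09 (1.23-fold; limma, unadjusted p = 0.0132, adjusted p = 0.153), and it was 0.26 after quantile normalization and -0.02 with spike-in scaling. Its other probe gave 0.24, with overlapping groups. Dnajc10 (ERdj5), a reductase that aids degradation, was at 2.97, 3.06 and 2.83 in corn oil and at 3.24, 3.11 and 3.14 in treated rats. The groups did not overlap, with a change of 0.21 ± 0.09 (adjusted p = 0.251), but its dimmer probe gave -0.14. Dnajb11 (ERdj3) had a change of 0.17 ± 0.11, or 0.07 without treated replicate 2, and Dnajc3, known as p58IPK, of 0.06 ± 0.07.

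Of all members, the widest spread between treated rats was in Sdf2l1, 1 of the small stress-induced proteins of the lumen. Sdf2l1, which joins the BiP complex, was at 1.54, 1.55 and 1.47 in corn oil and at 1.40, 2.53 and 2.23 in treated rats. Treated replicates 2 and 3 lay well above the corn oil arrays, and treated replicate 1 lay below all of them. The change was 0.53 ± 0.28 (1.45-fold; adjusted p = 0.312), the largest of the list, and its SE was the largest too. The other probes of Sdf2l1 gave 0.46 and 0.48 with the same order of treated arrays. Without treated replicate 1 the change was 0.86, and without treated replicate 2 it was 0.30. Creld2, a disulfide isomerase-like protein, was at 0.83, 0.85 and 0.71 in corn oil and at 0.51, 1.24 and 0.91 in treated rats, again with treated replicate 1 below and treated replicates 2 and 3 above all corn oil arrays. Its change was 0.09 ± 0.18, or 0.28 without treated replicate 1 and -0.08 without treated replicate 2.

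Treated replicates 2 and 3, but not treated replicate 1, lay above all corn oil arrays for 6 of 28 members (21.4%), Hspa5, Pdia6, Dnajb11, Creld2, Sdf2l1 and Xbp1, and for 11.8% of all genes tested. These shares are a description, with no test. The opposite case, treated replicate 1 alone above all corn oil arrays, was found for 3 of 28 members, the sensors Atf6 and Eif2ak3 and the degradation adaptor Sel1l, and for 7.52% of all genes. Treated replicate 2 had the lowest 75th percentile of the signal and the fewest probes well above background (61.6%). All 6 fibroblast markers also had treated replicate 1 lowest and treated replicate 2 highest of the treated arrays. So did the macrophage markers Cd68, Csf1r, C1qa and C1qb. The other macrophage marker tested, Adgre1, did not, at -0.55, -0.37 and -0.66 on treated replicates 1, 2 and 3. Relative to corn oil these markers differed. Csf1r had a change of -0.50, and for the fibroblast marker Pdgfra treated replicate 1 also lay above all corn oil arrays. Dcn, a proteoglycan of fibroblasts, was at 2.44, 2.49 and 2.34 in corn oil and at 1.97, 3.32 and 2.78 on treated replicates 1, 2 and 3. The collagen gene Col3a1 was at 1.68, 1.13 and 1.54 in corn oil and at 1.02, 2.30 and 1.79 in treated rats, and the macrophage complement gene C1qb at 2.87, 2.84 and 3.00 and at 2.75, 3.49 and 3.11. Summed over 6 fibroblast markers the signal was 25.2 to 27.9 times the 75th percentile in corn oil and 21.5 to 39.0 times in treated rats. Over 7 macrophage markers, of which Cd163 was above background on no array, it was 13.4 to 14.6 and 12.3 to 19.4 times. The part of array brightness or of these cells in the pattern was not tested.

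The sensors and their transcription factors showed no change that passed. Xbp1, whose product activates chaperone and degradation genes, was at 2.23, 2.46 and 2.28 in corn oil and at 2.43, 2.69 and 2.61 in treated rats. Treated replicate 1 lay just below corn oil replicate 2, and the other treated arrays above all corn oil arrays. The change was 0.25 ± 0.11 (limma, unadjusted p = 0.0576, adjusted p = 0.245), 0.15 after quantile normalization and -0.07 with spike-in scaling. Atf6 was at 1.43, 1.64 and 1.52 in corn oil and at 1.69, 1.51 and 1.56 in treated rats, with full overlap of the groups save for treated replicate 1, the highest array. Its change was 0.06 ± 0.09 from the brightest probe, against -0.07 and -0.37 from the dimmer ones. For the dimmest probe all treated arrays lay below all corn oil arrays.

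Eif2ak3, which encodes PERK, was at 0.14, 0.08 and 0.01 in corn oil and at 0.19, 0.14 and 0.14 in treated rats. Treated replicate 1 was the highest array and the others met the upper end of the corn oil arrays, for a change of 0.08 ± 0.08 (adjusted p = 0.574). Ern1, which encodes IRE1, was dim, with values of -4.86, -5.17 and -5.05 in corn oil and -4.87, -5.62 and -5.38 in treated rats, and it was the 1 member not well above background on every array (5 of 6, all but treated replicate 2). Treated replicates 2 and 3 were the lowest arrays, and the change was -0.27 ± 0.20 (adjusted p = 0.472), which turned to 0.15 after normexp background correction. It was -0.48 without treated replicate 1, a value that rests in part on treated replicate 2, and -0.10 without treated replicate 2. The gene passed the background filter through the corn oil group alone, where its mean was higher, so its change is a description only. Ppp1r15a encodes GADD34, the phosphatase subunit that ends the PERK response. It was at 0.86, 0.78 and 0.69 in corn oil and at 0.93, 0.89 and 0.85 in treated rats, where treated replicate 3 fell just inside the corn oil range. Its change was 0.11 ± 0.08 (adjusted p = 0.438), and its dimmer probe gave 0.12.

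In ER-associated degradation, which returns misfolded proteins to the cytosol for the proteasome, Herpud1 had the largest change of the 4 members tested. Herpud1 organises the degradation complex and is a known target of ATF6, XBP1 and ATF4. Its values were 3.85, 3.96 and 4.07 in corn oil and 4.12, 4.45 and 4.59 in treated rats. All treated arrays lay above all corn oil arrays, though treated replicate 1 was close to corn oil replicate 3. The change was 0.43 ± 0.14 (1.34-fold; limma, unadjusted p = 0.0219, adjusted p = 0.176), 0.24 after quantile normalization, where the groups overlapped, and 0.11 with spike-in scaling. Its dimmer probe gave 0.25 with overlapping groups. Derl1, a channel component, was at 3.33, 3.38 and 3.31 in corn oil and at 3.42, 3.50 and 3.41 in treated rats, which did not overlap. Its change was 0.11 ± 0.07 (adjusted p = 0.430), and it was -0.04 after quantile normalization. The ubiquitin ligase Syvn1, also called HRD1, and its partner Sel1l had changes of 0.01 ± 0.09 and 0.02 ± 0.07 from their brightest probes, against -0.44 and -0.23 from their dimmer ones. For the dimmer probe of Syvn1 all treated arrays lay below all corn oil arrays. In a limma fit over all probes its unadjusted p was 0.0086 (adjusted p = 0.153). That of the dimmest Atf6 probe was 0.0101 (adjusted p = 0.157), and that of the brightest Dnajb9 probe 0.0148 (adjusted p = 0.166).

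Translocon members, through which new proteins enter the ER, went in different directions. Sec61b, the small beta subunit of the channel, was at 3.76, 3.71 and 3.77 in corn oil and at 3.87, 4.44 and 4.19 in treated rats. The groups did not overlap, and treated replicate 1 was the nearest to the narrow corn oil range. The change was 0.42 ± 0.15 (1.34-fold; limma, unadjusted p = 0.0295, adjusted p = 0.191), and a further probe gave 0.38, again without overlap. It was 0.24 after quantile normalization and 0.10 with spike-in scaling. Sec61a1, the pore-forming subunit, had a change of -0.10 ± 0.10. Ssr1, a subunit of the translocon-associated complex, was at 2.39, 2.53 and 2.64 in corn oil and at 2.71, 2.67 and 2.76 in treated rats. These groups did not overlap, and the change was 0.19 ± 0.09 (adjusted p = 0.277), or -0.13 with spike-in scaling.

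**Figure D2:**
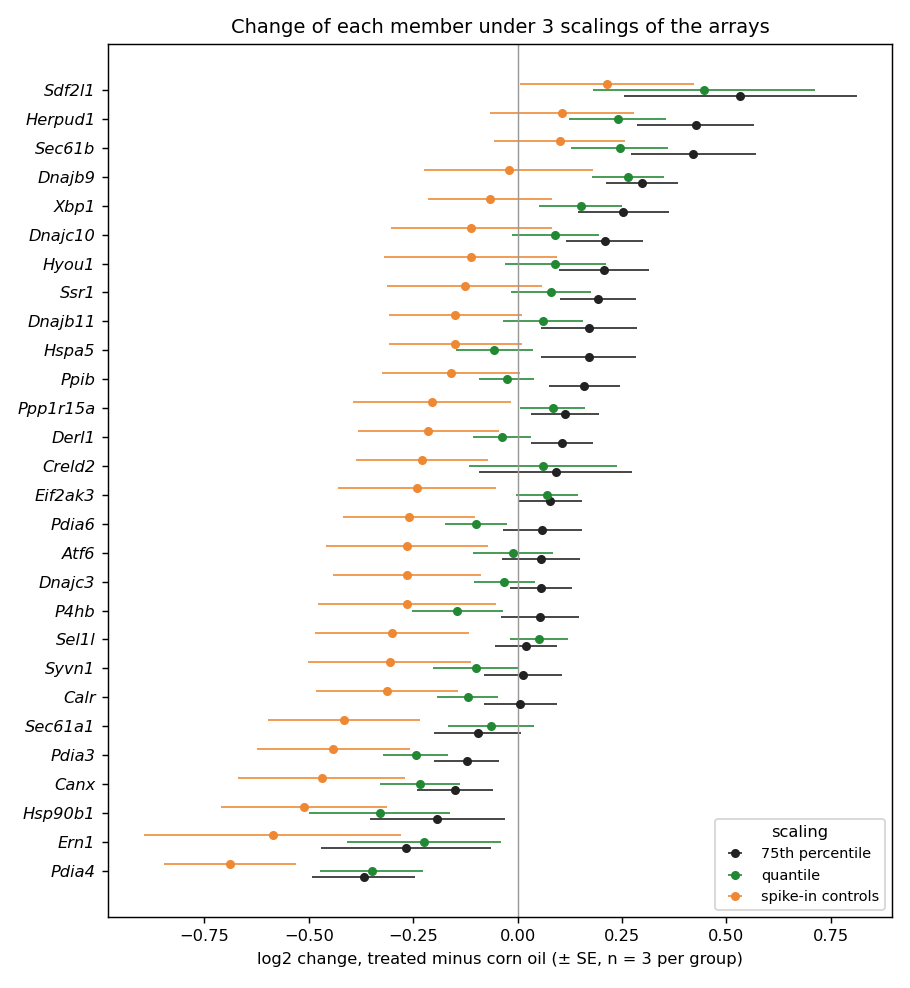
Points are the log2 change of each member (treated minus corn oil, n = 3 per group) and bars the SE of limma, with the arrays scaled to the 75th percentile (black), by quantiles (green) or on spike-in controls (orange). With spike-in scaling 19 members have the opposite sign, and the order of the members is the same by construction, as every change shifts equally. After quantile normalization too, Sdf2l1 has the highest change and Pdia4 the lowest.

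Where a member had several probes, the dimmer ones mostly had the lower change. Of the 28 members, 16 had more than 1 probe, with 18 dimmer probes beside the brightest ones. The dimmer probe had the lower change in 15 of these 18 pairs, with a median difference of -0.12, and for 8 members (Atf6, Dnajb11, Dnajc10, Eif2ak3, Hsp90b1, Hyou1, Sel1l and Syvn1) the probes differed in sign. Sdf2l1, Sec61b, Herpud1 and Dnajb9 had changes above 0 from every probe. When all genes tested were split into 10 equal groups by signal, the dimmest group had a median change of -0.12 and the 3 brightest groups had medians of 0.10, 0.13 and 0.23. Of the 28 members, 18 lay in these 3 brightest groups. After quantile normalization the medians of the dimmest and brightest groups were -0.08 and -0.0043. The change of Hspa5, 0.17, was thus below the median of the brightest group.

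**Figure D3:**
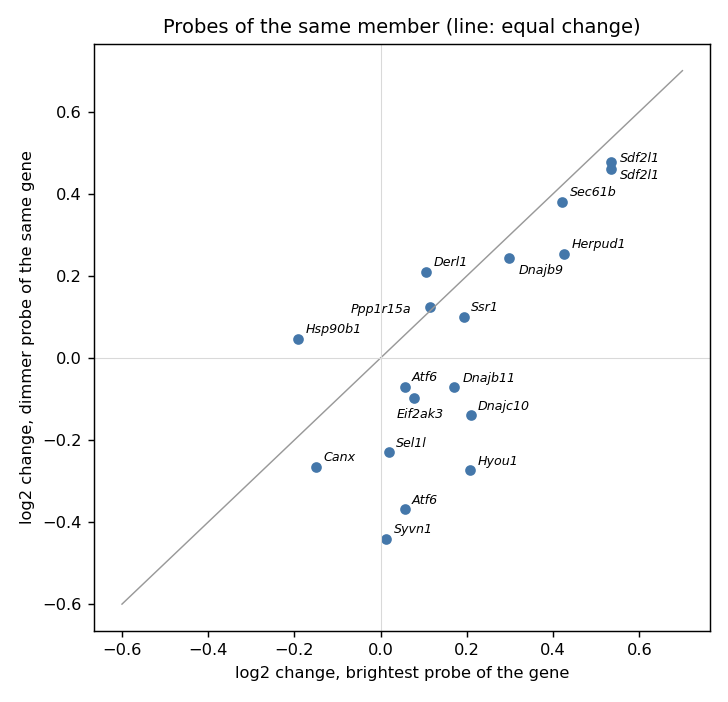
Each point compares the log2 change of a dimmer probe (vertical axis) with that of the brightest probe of the same member (horizontal axis). Of the 18 points, 15 lie below the line of equal change.

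**Figure D4:**
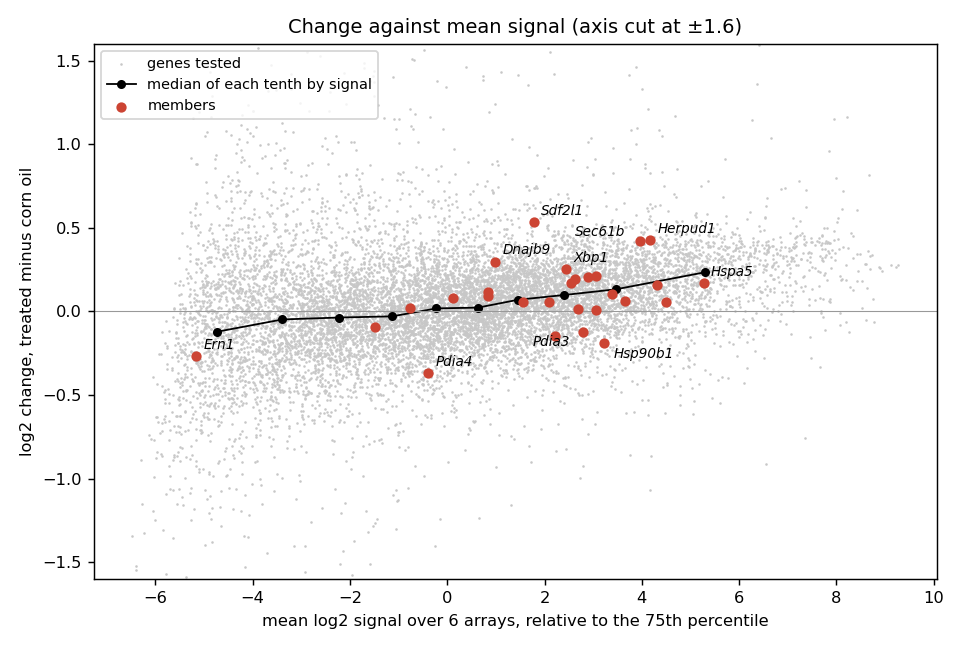
The log2 change of each gene tested (grey) and each member (red) is plotted against its mean log2 signal over the 6 arrays, with black points for the median change of each of 10 groups of genes by signal. The vertical axis is cut at 1.6 in both directions, and the black line runs from -0.12 to 0.23.

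Other genes of the ER pathway were grouped by function in 7 lists, of which 120 of 133 genes were tested. None passed in limma (0 of 120), the median change was 0.13 (0.02 after quantile normalization and -0.18 with spike-in scaling), and 35 were higher and 4 lower (unadjusted p under 0.05, background 14.3% and 7.29% of all genes). These counts were 16 and 9 after quantile normalization (background 8.15% and 9.64%) and 3 and 10 with spike-in scaling (background 1.02% and 20.9%). The PERK and ATF4 arm, which answers amino acid shortage as well as ER stress, had the highest median, 0.44 over 15 genes (0.23 after quantile normalization and 0.12 with spike-in scaling), with 7 genes higher and 2 lower (unadjusted p under 0.05, same background). After quantile normalization 5 were higher and 2 lower, and with spike-in scaling 1 and 3, each against the background given above for that scaling. Atf4 itself was at 4.38, 4.55 and 4.50 in corn oil and at 4.56, 5.005 and 5.17 in treated rats, for a change of 0.44 ± 0.17 (adjusted p = 0.209). Ddit3, which encodes CHOP, a transcription factor of prolonged ER stress, was at 2.39, 2.73 and 2.57 in corn oil and at 2.73, 3.17 and 3.20 in treated rats. As for Herpud1, the groups of both genes did not overlap, treated replicate 1 was close to the corn oil arrays and treated replicates 2 and 3 were higher. The change of Ddit3 was 0.47 ± 0.16 (adjusted p = 0.182). Asns, asparagine synthetase, and the transcription factor Atf5 had the lowest p of the list, with changes of 1.61 ± 0.20 (adjusted p = 0.0799) and 0.82 ± 0.16 (adjusted p = 0.116), and for both the 3 treated arrays lay above the corn oil arrays. Asns passed the threshold after normexp background correction, with the trend and robust settings of limma and without treated replicate 2.

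Genes listed with the IRE1 and ATF6 arms had a median change of 0.04 over 17 genes, with 2 higher and 1 lower (unadjusted p under 0.05), and of -0.28 with spike-in scaling. Creb3l3, a membrane-bound transcription factor cut in the Golgi as ATF6 is, was at 2.08, 2.82 and 1.89 in corn oil and at 1.07, 0.63 and -0.07 in treated rats. The groups did not overlap, with a change of -1.72 ± 0.36 (0.304-fold; adjusted p = 0.118), -1.44 with the slide as a block and -1.53 from its other probe. Its relative Creb3l2 had a change of 0.36 ± 0.12 (adjusted p = 0.179), but its dimmer probe gave -0.95. Other foldases had a median of 0.17 over 19 genes (0.06 after quantile normalization and -0.15 with spike-in scaling), with 7 higher and 0 lower (unadjusted p under 0.05, background 14.3% and 7.29%). These counts were 3 and 0 after quantile normalization (background 8.15% and 9.64%) and 1 and 0 with spike-in scaling (background 1.02% and 20.9%). Among these foldases Ppic, cyclophilin C, was at 3.47, 2.76 and 2.83 in corn oil and at 4.06, 4.41 and 4.84 in treated rats. Its change was 1.41 ± 0.26 (2.66-fold; limma, adjusted p = 0.108), or 1.30 from its other probe. Fkbp2, another prolyl isomerase, had 0.39 ± 0.08 (adjusted p = 0.123).

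Genes of N-glycosylation and the calnexin cycle had a median of 0.02 over 14 genes (-0.09 after quantile normalization), with Ostc, a subunit of oligosaccharyltransferase, at 0.42 ± 0.10 and Mcfd2, a cargo receptor subunit, at 0.40 ± 0.09. Further degradation genes had a median of 0.11 over 21 genes (0.02 after quantile normalization and -0.20 with spike-in scaling), with 7 higher and 0 lower (unadjusted p under 0.05, background 14.3% and 7.29%). These counts were 3 and 0 after quantile normalization (background 8.15% and 9.64%) and 1 and 1 with spike-in scaling (background 1.02% and 20.9%). The genes of this list with the lowest p were Aup1 (0.38 ± 0.09) and the lectin Erlec1 (0.28 ± 0.09), while Derl3 had the largest change, 1.09 ± 0.38. Further genes of translocation and signal peptide removal had a median of 0.19, and all 19 had a change above 0 (57.4% of all genes), of which 7 had an unadjusted p under 0.05 (background 14.3%). With quantile normalization 13 of the 19 were above 0 (5761 of 11748 genes) and 2 were higher at such a p (background 8.15%). With spike-in scaling these counts were 6 and 0 (background 1.02% for the latter). Spcs3, a subunit of signal peptidase, had a change of 0.37 ± 0.09, and Srp68, of the signal recognition particle, of 0.30 ± 0.09. Transport genes of the ER exit and retrieval coats had a median of 0.05 over 15 genes (-0.09 after quantile normalization), with Sar1b at 0.30 ± 0.08 and Sec13 at 0.33 ± 0.12.

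**Figure D5:**
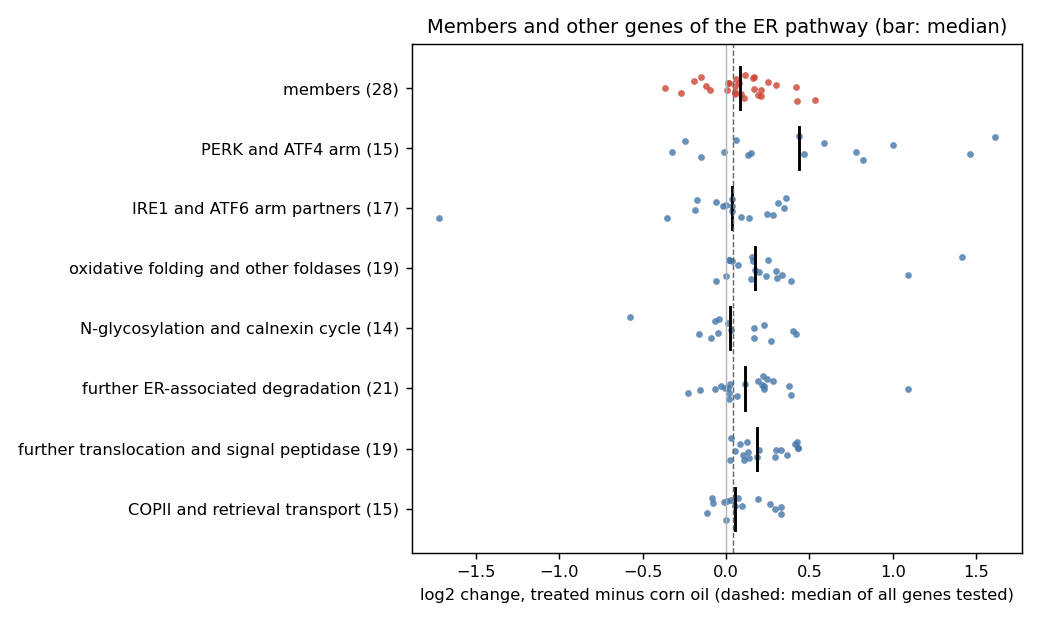
Points are the log2 changes (treated minus corn oil, 75th percentile scaling) of the members (red) and of the genes of 7 other ER pathway lists (blue, number tested in brackets), spread vertically for legibility only, and bars are medians. The PERK and ATF4 arm has the highest median, 0.44, against 0.08 for the members and a dashed line at 0.04 for all genes tested.

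Plasma cells carry an enlarged ER, so their markers were read beside the members. Of 10 B cell and plasma cell markers 7 had a named probe. Summed over these 7 genes, the signal was 4.41 to 5.47 times the 75th percentile in corn oil and 6.59 to 7.73 times in treated rats. Most of this sum came from Sdc1, which epithelia also express, with a change of 0.62 (adjusted p = 0.116). Mzb1, Tnfrsf17 and Irf4, which define plasma cells, were each well above background on 2 of 6 arrays and were not tested. Cd79b, a B cell receptor subunit, had a change of 0.81 (adjusted p = 0.112), and the part of such cells in the values of the members was not tested. Markers of other cells also differed in value, with 0 past the adjusted threshold. At an unadjusted p under 0.05 the background was 14.3% of all genes higher and 7.29% lower. All 5 erythroid markers had a change above 0 (median change 0.96, 4 of them at an unadjusted p under 0.05), among them Hbb at 0.96. All 6 T cell markers had a change below 0 (median -0.47, 2 at an unadjusted p under 0.05). Cd3e, which is 1 of these 2, and Cd2 were well above background on 4 of 6 arrays. They thus passed the background filter through 1 group alone, and their means were higher in corn oil, so their changes are a description only. After normexp background correction the T cell median was -0.17, with 0 at such a p. Changes were also below 0 for the 3 distal tubule markers tested (median -0.53, 2 at such a p) and for 5 of 6 principal cell markers (median -0.30, 3 at such a p). The part of all these cells in the values of the members was not tested either.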

How the data were processed

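Total RNA of the renal cortex of 6 rats was read on 1-colour arrays, 3 per group. The deposited intensity is, per the file headers, a spot signal after background subtraction and detrending by Agilent Feature Extraction 10.7.1.1 (10.7 per the submitters' processing notes). The authors' value table, a deposited ratio to the 75th percentile of each array, matched scanner files of other replicate numbers within the same group (SD of the log2 difference 0.0002), so replicate numbers follow the scanner files. From the intensity, log2 minus the 75th percentile over the 61657 non-control probes was computed, 64 probes flagged as outliers by the scanner software were dropped, and a probe was kept if 1 group or both had it well above background on 3 of 3 arrays. Gene names came from RefSeq accessions and the GRCr8 gene table, with the brightest kept probe per gene. The groups were fitted with lmFit and eBayes of limma 3.58.1 (R 4.3.3) without a block, after a check on simulated data. Other scalings, background correction, filters, blocks, probe rules and arrays left out were tried as alternatives. Every member is described; values on all arrays are given for members without overlap, for 7 fixed genes and for the largest change of each role, and of each other list the 2 genes with the lowest p are named, with Atf4 and Ddit3. The other lists, as the members, were chosen with earlier results of these data known. Whether animals of a group were housed or processed apart is not given in the sources used here. The number of arrays limits the precision.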

Additional observations from a re-analysis of the deposited data

How the results depend on the processing

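No member passed the adjusted threshold in limma in any of the 17 alternative fits (4 had an unadjusted p under 0.05 with the 75th percentile scaling). The median change over the members was -0.018 after quantile normalization, 0.12 with median scaling, -0.23 with spike-in scaling, 0.11 with the slide as a block and 0.052 with the mean over probes, and 0.051 to 0.11 with 1 array left out. Members whose treated arrays all lay above the corn oil arrays numbered 2 after quantile normalization (12.3% of all genes), 0 with spike-in scaling (1.32%) and 7 to 13 with 1 array left out (20.1% of all genes with all arrays, 22.8% to 31.8% with 1 left out). Those below numbered 1 with median scaling (8.37%), 5 with spike-in scaling (25.8%), 4 after normexp correction (7.38%), 5 with the mean over probes (12%) and 2 to 4 with 1 array left out (12.8% to 18.5%). Over all genes, 8 passed with spike-in scaling, 19 after normexp correction and 69 with trend and robust settings. The count was 0 with no filter (3496 at an unadjusted p under 0.05), with the replicate block (2121), with the slide block (1764) and with the mean over probes (2443). With 1 array left out it was 0 to 70, namely 0 for each corn oil array (1533 to 1764 at an unadjusted p under 0.05), 21 for treated replicate 1, 70 for treated replicate 2 and 2 for treated replicate 3. At an unadjusted p under 0.05, 1679 genes were higher and 856 lower, against 958 and 1133 after quantile normalization, 120 and 2458 with spike-in scaling, and 2083 and 599 after normexp correction. Spike-in scaling shifts every change by the same amount; the cause of the other differences was not tested.

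Changes that took the opposite sign after quantile normalization were Hspa5 -0.056, Calr -0.12, Pdia6 -0.10, P4hb -0.14, Ppib -0.026, Dnajc3 -0.031, Atf6 -0.011, Syvn1 -0.10 and Derl1 -0.037. With spike-in scaling they were Hspa5 -0.15, Hyou1 -0.11, Calr -0.31, Pdia6 -0.26, P4hb -0.26, Ppib -0.16, Dnajb9 -0.021, Dnajb11 -0.15, Dnajc3 -0.26, Dnajc10 -0.11, Creld2 -0.23, Xbp1 -0.066, Atf6 -0.26, Eif2ak3 -0.24, Ppp1r15a -0.21, Sel1l -0.30, Syvn1 -0.31, Derl1 -0.21, Ssr1 -0.13, Erlec1 -0.035, Srp68 -0.018 and Sar1b -0.024. After normexp correction they were Calr -0.10, Pdia6 -0.018, Atf6 -0.11, Ern1 0.15 and Syvn1 -0.0055. With the slide as a block they were Calr -0.026 and P4hb -0.0012, and with the mean over probes Hyou1 -0.033, Atf6 -0.13, Eif2ak3 -0.0098, Sel1l -0.11, Syvn1 -0.21 and Creb3l2 -0.30. Leaving out 1 array turned Syvn1 (-0.019 to 0.072), Calr (-0.051 to 0.041), P4hb (-0.0012 to 0.11), Sel1l (-0.0056 to 0.043) and Creld2 (-0.083 to 0.28).

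Same-numbered animals did not deviate together (correlations of 0.006, -0.05 and -0.032 for replicates 1, 2 and 3), so the numbers were not taken as pairs. With the replicate number as a block, the median change over the members was 0.085 and 0 members passed. Signal over background limits the values of dim probes, such as that of Ern1.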

Other observations

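Derl3, a paralogue of Derl1 in ER-associated degradation, was singled out after its values were seen, because it had the largest change of the 27 tested genes whose promoter window holds ERSE or ERSE-II. It was at -1.41, -0.97 and -1.36 in corn oil and at -1.04, 0.20 and 0.38 in treated rats. The change was 1.09 ± 0.38 (limma, adjusted p = 0.185), which did not pass the threshold.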
